A study of Bos taurus with 15 samples.

Results

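The cell division genes described here, the members below, are 41 of 48 genes chosen by name for their part in DNA replication and mitosis, and they belong to the 13896 genes counted in each deposited table. A gene was taken when its symbol had a row in all 6 tables. *MKI67*, *TOP2A*, *CDT1*, *CENPE*, *MCM2*, *FOXM1* and *GINS2* were not analysed here. RNA was sequenced from subcutaneous adipose tissue of the dewlap, under the neck, of Holstein cows in their first lactation, in 15 libraries that form 5 groups of 3. One group was sampled at -4 wkpp (weeks peripartum), before the diets began. The others had been fed since a month before calving either the low energy diet (LE) or the high energy diet (HE) and were sampled at 1 or 16 wkpp. The study described its cows by energy balance instead, in which SNEB stands for a severe and MNEB for a moderate deficit, and sequenced those with the most extreme balance at 1 wkpp. The names LE and HE are those of the labels. The labels do not say which diet the cows sampled at -4 wkpp received later, and they do not tie libraries to cows, so cows sampled at several time points entered as separate libraries.

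Dividing cells copy their DNA in S phase and separate the copies in mitosis. Before S phase, a ring of MCM proteins is loaded on DNA by CDC6 (licensing), and PCNA then holds the polymerases on the template while ribonucleotide reductase (*RRM1*, *RRM2*), *TYMS* and *TK1* supply nucleotides. Cyclins and their kinases drive each step. Genes of mitosis, such as those of kinetochores, spindle motors and the anaphase promoting complex, are transcribed mostly late in the cycle, so their RNA marks cells in division. Mature adipocytes do not divide, and in adipose tissue division takes place in progenitor, endothelial and immune cells. In bulk tissue, fewer dividing cells and less RNA per cell cannot be told apart.

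The reads of every library were recovered from the authors' means, and a level below is the number of reads divided by the size factor of the library, from exons unless the whole gene is named. Libraries are called a, b and c within a group in order of size factor, highest first, as they could not be matched to single animals. Genes held 9023581 to 15429091 exonic reads in the 9 libraries of -4 wkpp and LE and 2051593 to 7630432 in the 6 HE libraries, so that 1 read gave a level of 0.520 to 0.934 in the former and 0.978 to 3.68 in the latter. Synthetic spike-in RNAs took 0.774 to 5.46% of exonic reads at -4 wkpp and in LE and 25.8 to 43.1% in HE. Depth and spike-in share thus moved with the diet and cannot be told apart from it. The adipocyte markers found (5 of 7, without *ADIPOQ* and *PLIN4*, which were not analysed here) summed to a level of 44009 to 54021 at -4 wkpp. In LE they summed to 71113 to 86686 at 1 wkpp and to 41079 to 47584 at 16 wkpp, and in HE to 18402 to 55438 and to 9194 to 38882. These sums, mostly *PLIN1* and *FABP4*, did not overlap between the diets at either time. Singly, 4 of 5 markers were higher in LE without overlap at 1 wkpp and 2 of 5 at 16 wkpp. *LEP* leaned to HE at 16 wkpp, with 41.6, 8.57 and 12.9 in LE and 153.6, 36.0 and 48.8 in HE. Skeletal muscle markers (5 of 5) summed to 1171 to 4000 in HE and to 71.9 to 342 elsewhere, but nearly all of this was *TNNT3* (1170 to 3941 and 54.1 to 338), and the other 4 reached at most 94.6 in any HE library. B cell markers (4 of 5) summed to 154 to 726 in HE and to 2317 to 5451 elsewhere, mostly as *CR2* (130.1 to 667 and 2298 to 5379). Fibroblast and progenitor markers (6 of 6) summed to 30768 to 90755 in HE and to 102837 to 407896 elsewhere, mostly as *COL1A1*, *COL1A2* and *DCN*. Single library values of genes this abundant are less certain, as described with the processing below. Markers of keratinocytes and hair follicles (5 of 5) summed to 172 to 610 at -4 wkpp, 2.45 to 9.87 in LE, 6.26, 73.0 and 268 in HE 1 wkpp libraries a, b and c, and 0 to 51.85 in HE 16 wkpp. The part of depth and of these cell types in the differences between groups was not tested.

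Most cell division genes were low. The mean number of exonic reads per library had a median of 48.4 over the 41 genes and of 202 over the 13660 genes with reads. In 26 of the 41 genes it was below 100, and in 8 at least 1 library had no read. The highest means were those of *MCM7* (1009 reads), *RRM1* (798), *MCM6* (571), *PCNA* (363), *TYMS* (326), *MCM3* (298), *MCM4* (243) and *CDC25B* (212). Apart from *CDC25B*, a phosphatase that activates cyclin-dependent kinases, these genes all act in replication or nucleotide supply. The lowest were *CENPA* (6.27 reads), the histone variant of centromeres, *CDCA8* (12.6), of the chromosomal passenger complex, the mitotic cyclin *CCNB1* (12.3) and the spindle protein *NUSAP1* (12.3). These counts depend on transcript length, and levels of different genes were not compared.

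**Figure D1:**
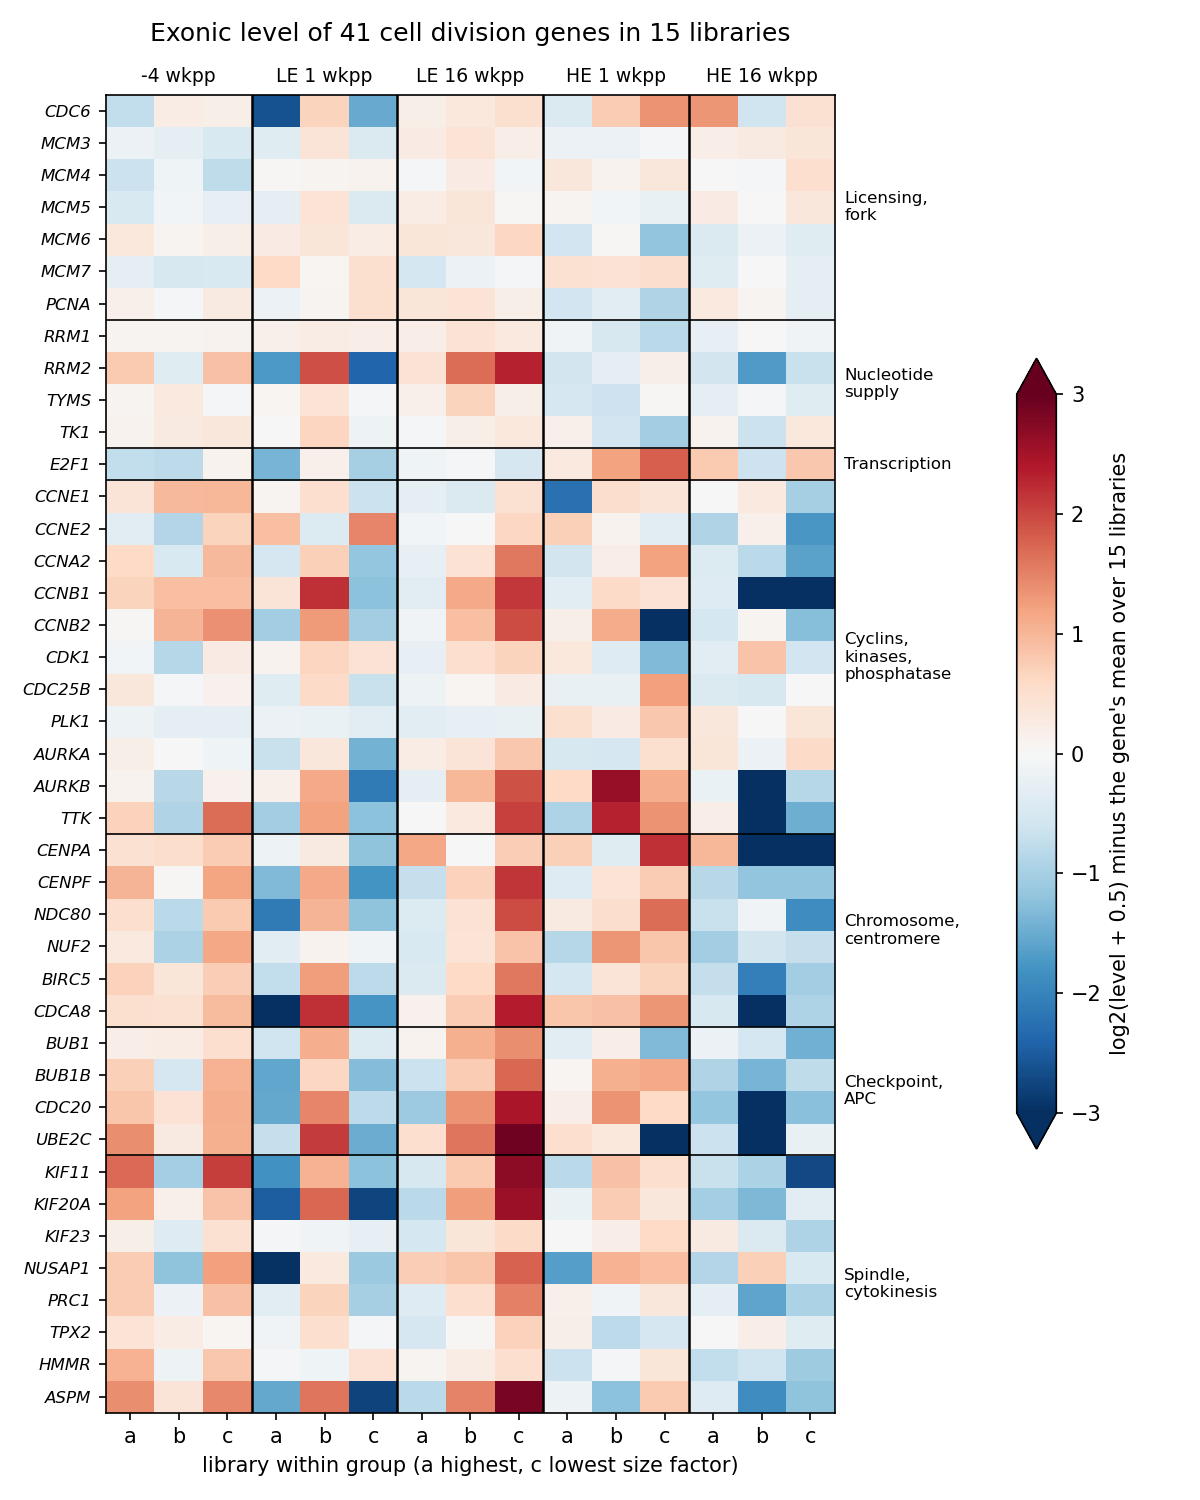
Exonic level of the 41 cell division genes (rows, ordered by role) in the 15 libraries (columns, by group, a to c in falling order of size factor). Colour is log2(level + 0.5) minus the mean of the gene over all libraries, and the scale ends at -3 and 3. Libraries of one group differ in the mitotic rows, with LE 1 wkpp library b and LE 16 wkpp library c highest in 34 and 33 of the 41 genes, whereas the rows from *MCM3* to *RRM1* are pale throughout.

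No member was called in any of the 6 comparisons. Following the study, a gene had to pass in the exon and in the whole gene analysis to be called. The threshold was an adjusted p-value of 0.01 with the same direction in both (limma-voom, Benjamini-Hochberg over all genes tested). The count was 0 members of 38 tested for -4 versus HE 1 wkpp, 40 for -4 versus LE 1 wkpp, 26 for HE 1 versus HE 16 wkpp, 40 for LE 1 versus LE 16 wkpp, 38 for LE versus HE at 1 wkpp and 40 for LE versus HE at 16 wkpp. Over all genes, 1.85%, 0.0378%, 0%, 0%, 0% and 3.75% were called in these comparisons, respectively, so few members would be called at the rate of other genes. At an unadjusted exonic p below 0.05, the members higher and lower in the group named first numbered 3 and 5, 0 and 2, 4 and 1, 1 and 1, 3 and 2, and 6 and 1, in the same order. On the whole gene they numbered 4, 2, 3, 3, 1 and 4, both directions together, where 29.1%, 11.3%, 13.7%, 6.84%, 22.1% and 31.4% of all genes tested passed. The limma-trend alternative also called 0 members in each comparison. On exons, the share of all genes at that level was 42.3%, 14.5%, 13.5%, 7.21%, 32.5% and 37.9%.

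Among the licensing genes, *MCM7*, a subunit of the replicative helicase, came nearest to a call. Its level was 688, 594 and 608 in libraries a, b and c at -4 wkpp. At 1 wkpp it was 1263, 871 and 1158 in LE and 1144, 1119 and 1202 in HE. At 16 wkpp it was 580, 731 and 811 in LE and 651, 828 and 688 in HE. All 6 libraries at 1 wkpp were thus above the other 9. Between -4 and HE 1 wkpp the log2 fold change was -0.87 ± 0.19 (SE, n = 3 and 3), with limma adjusted p = 0.00656 on exons and 0.0321 on the whole gene, so the gene passed 0.01 in the exon analysis alone, where 16.6% of all genes did. Against LE 1 wkpp the change was -0.78 ± 0.19 (limma adjusted p = 0.0843 on exons and 0.162 on the whole gene). From 1 to 16 wkpp the difference, 1 minus 16 wkpp, was 0.68 ± 0.20 in HE and 0.61 ± 0.20 in LE (limma adjusted p = 0.268 and 0.683). The libraries at -4 wkpp are shared by the first pair of comparisons, so these are not separate results. In mammals the *MCM7* gene carries microRNA genes in an intron, which these counts do not separate.

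*MCM6*, another helicase subunit, was lower in every HE library than in any library of the other groups. Levels were 509, 434 and 461 at -4 wkpp, 484, 533 and 480 in LE 1 wkpp and 530, 520 and 628 in LE 16 wkpp. They were 276, 424 and 180 in HE 1 wkpp and 306, 365 and 320 in HE 16 wkpp. The gap was narrow, between 424 and 434. LE minus HE was 0.78 ± 0.17 at 16 wkpp (limma adjusted p = 0.0128 on exons and 0.0416 on the whole gene) and 0.83 ± 0.28 at 1 wkpp (0.0766 and 0.283), neither of which was a call. On the whole gene, HE 1 wkpp library b (753) lay above the levels at -4 wkpp (648 to 692).

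*MCM4*, also of the helicase, had levels of 131, 188 and 121 at -4 wkpp and of 260, 222 and 261 in HE 1 wkpp, and the difference was -0.77 ± 0.26 (limma adjusted p = 0.0468 on exons and 0.164 on the whole gene). In LE 1 wkpp it was at 210, 217 and 221, likewise above -4 wkpp without overlap. *MCM3* spanned only 178 to 322 over all 15 libraries. Its largest fitted difference was -0.43 ± 0.23, for LE 1 minus LE 16 wkpp (limma adjusted p = 0.697). By group mean, *MCM7*, *MCM4*, *MCM3* (198 against 223 to 297) and *MCM5* (137 against 155 to 188) were lowest at -4 wkpp, and *MCM6* was lowest in HE 1 wkpp. Differences between subunits were not tested.

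*PCNA*, the sliding clamp of replication, was at 302, 263 and 332 at -4 wkpp, at 242, 292 and 382 in LE 1 wkpp and at 353, 362 and 311 in LE 16 wkpp. In HE it was at 183, 219 and 147 at 1 wkpp and at 334, 291 and 228 at 16 wkpp. HE 1 wkpp lay below every other group without overlap. The difference was 0.70 ± 0.25 for -4 minus HE 1 wkpp (limma adjusted p = 0.0541), -0.65 ± 0.27 for HE 1 minus HE 16 wkpp (0.347) and 0.72 ± 0.28 for LE minus HE at 1 wkpp (0.119). None passed the threshold.

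In nucleotide supply, *RRM1*, the large subunit of ribonucleotide reductase, was at 639, 634.5 and 646 at -4 wkpp. It was at 669, 706 and 693 in LE 1 wkpp and at 688, 821 and 745 in LE 16 wkpp. The HE levels were lower, at 560, 432 and 346 at 1 wkpp and 511, 594 and 558 at 16 wkpp, below all 9 libraries of -4 wkpp and LE. LE minus HE was 0.61 ± 0.23 at 1 wkpp (limma adjusted p = 0.105) and 0.45 ± 0.16 at 16 wkpp (0.0664). *TYMS*, thymidylate synthase, showed LE minus HE of 0.57 ± 0.26 and 0.56 ± 0.22 at these times (limma adjusted p = 0.165 and 0.0955), with overlap at 1 wkpp and none at 16 wkpp. The 3 HE libraries at 1 wkpp differed among themselves by up to 2.36 times in *MCM6* and 1.62 times in *RRM1*.

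*RRM2* encodes the small subunit of the same enzyme, which is made mainly in S phase, and it varied far more than *RRM1*. Levels were 7.57, 100.2 and 4.57 in LE 1 wkpp and 35.3, 84.5 and 131 in LE 16 wkpp. They were 44.9, 20.2 and 48.6 at -4 wkpp, 17.7, 21.6 and 29.4 in HE 1 wkpp and 17.6, 7.71 and 16.2 in HE 16 wkpp. Within LE 1 wkpp, library b was 21.9 times as high as library c. The largest fitted differences were 2.25 ± 0.89 for LE minus HE at 16 wkpp (limma adjusted p = 0.0982) and -2.14 ± 0.99 for LE 1 minus LE 16 wkpp (0.683).

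**Figure D2:**
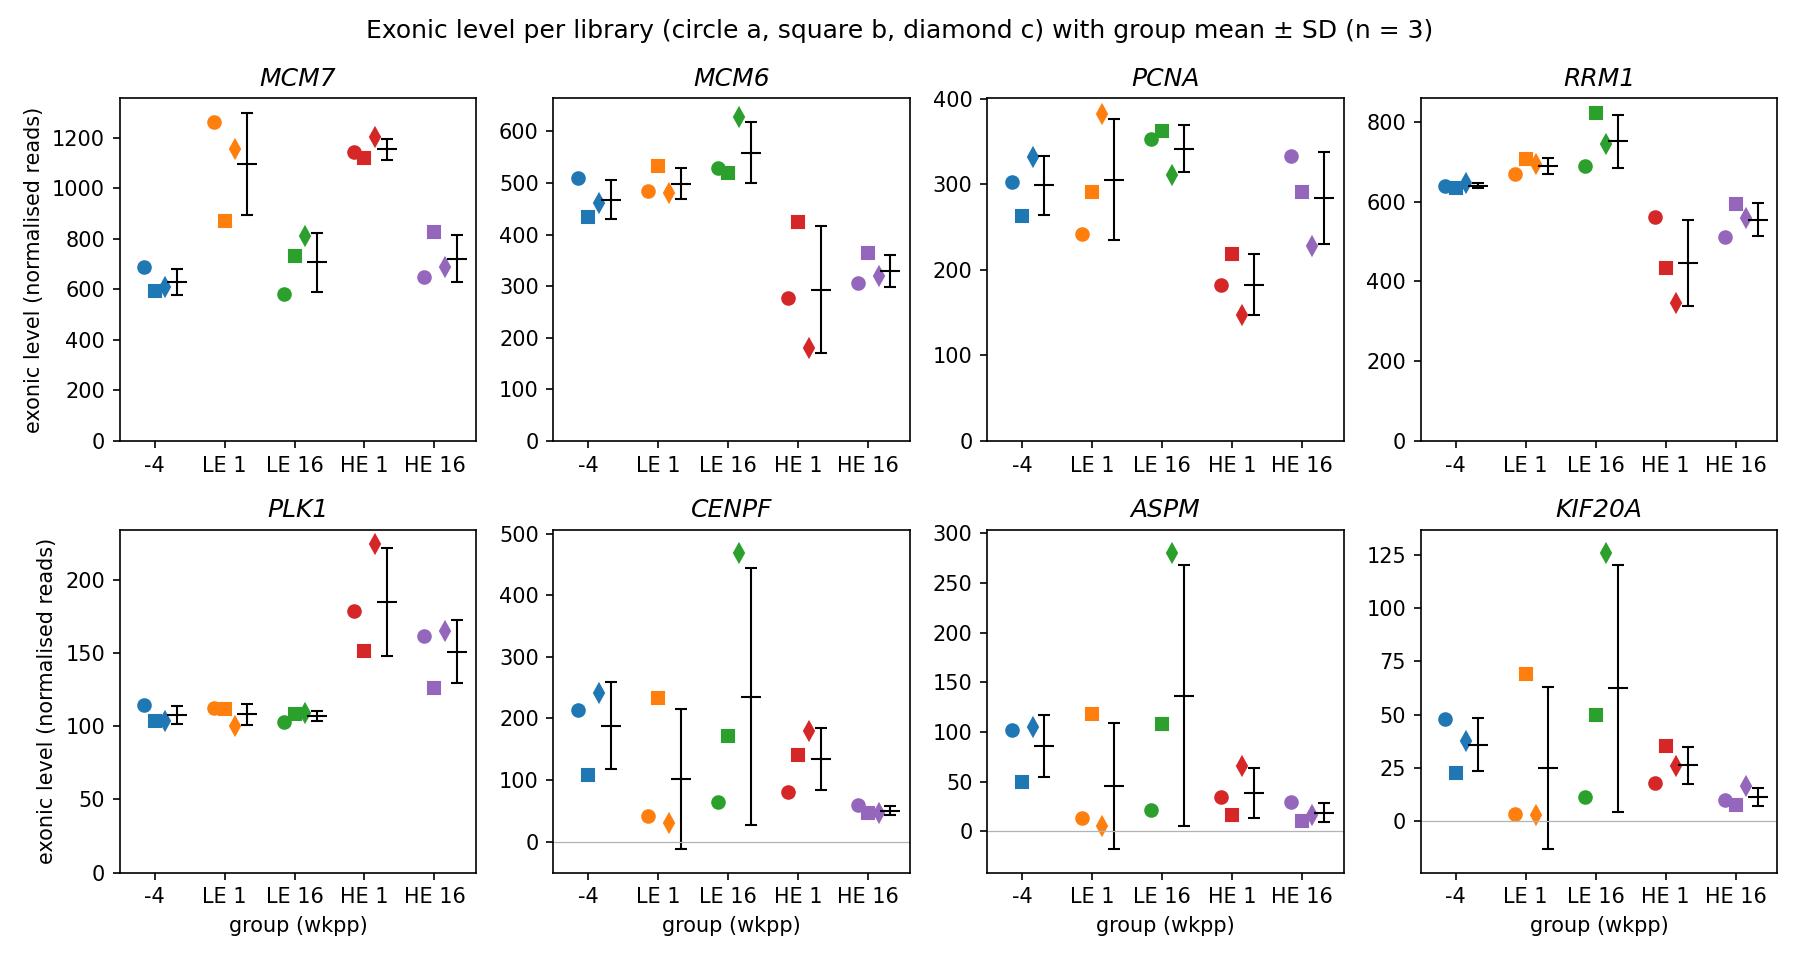
Exonic level (normalised reads, linear axis) of 8 genes in the 15 libraries, by group, with circles for library a, squares for b and diamonds for c, and the group mean ± SD (n = 3) in black. *MCM7* is highest in both groups at 1 wkpp, *MCM6* and *RRM1* are lowest in HE, *PLK1* is highest in HE, and *CENPF*, *ASPM* and *KIF20A* spread widely within LE.

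*E2F1*, the transcription factor that opens the way to S phase, had its highest mean in HE 1 wkpp. It was at 28.2, 27.5 and 51.4 at -4 wkpp, at 17.8, 53.2 and 23.5 in LE 1 wkpp and at 58.4, 111 and 165 in HE 1 wkpp. The HE libraries were above both other groups without overlap, and also differed 2.83 times among themselves. The difference from HE 1 wkpp was -1.39 ± 0.44 for -4 wkpp (limma adjusted p = 0.0349 on exons and 0.192 on the whole gene) and -1.59 ± 0.53 for LE (0.0712 and 0.258). At 16 wkpp LE minus HE was -0.69 ± 0.38 (limma adjusted p = 0.216).

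Of the kinases, *CDK1*, which drives entry into mitosis, was at 15.3 to 33.6 at -4 wkpp, 30.3 to 44.2 in LE 1 wkpp, 23.9 to 45.2 in LE 16 wkpp, 11.0 to 35.5 in HE 1 wkpp and 19.0 to 51.4 in HE 16 wkpp, and the groups overlapped in all 6 comparisons. Its fitted changes lay between -0.67 ± 0.39 and 0.56 ± 0.52 (limma adjusted p at least 0.488). *PLK1*, a kinase of mitotic entry and spindle assembly, was the member with the smallest spread within groups (SD 0.17 on the log2 scale). It was at 99.9 to 114 in all 9 libraries of -4 wkpp and LE and at 126 to 224 in the 6 HE libraries. LE minus HE was -0.72 ± 0.25 at 1 wkpp (limma adjusted p = 0.0782) and -0.52 ± 0.20 at 16 wkpp (0.0946), and -4 minus HE 1 wkpp was -0.74 ± 0.25 (0.0473, whole gene 0.136). *PLK1* therefore went the other way from most mitotic genes at 16 wkpp. *PLK1*, *MCM5*, *CDC6*, *HMMR*, *BUB1*, *NUF2* and *KIF11* fall outside the naming rule and were added after their values were seen.

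*CCNE1* and *CCNE2* encode the cyclins of the step from G1 to S phase, and their fitted changes from -4 to HE 1 wkpp differed in sign, with -0.62 ± 0.48 for *CCNE2*. *CCNE1* was at 21.9, 33.0 and 33.6 at -4 wkpp and at 3.13, 24.3 and 22.1 in HE 1 wkpp, where library a was far below the other two. The difference was 1.63 ± 0.74 (limma adjusted p = 0.122). *CCNE2* was at 104, 41.4 and 154 in LE 1 wkpp, with library b, the highest for most members, as the lowest. Its difference from 1 to 16 wkpp in HE was 1.18 ± 0.50, with levels of 90.7, 59.5 and 44.1 against 29.4, 61.7 and 16.2 (limma adjusted p = 0.355). *AURKB*, the kinase of the chromosomal passenger complex, was at 10.9, 5.50 and 11.2 at -4 wkpp and at 15.6, 64.9 and 22.1 in HE 1 wkpp, a difference of -1.49 ± 0.67 (limma adjusted p = 0.116). *CCNB1* had no read in HE 16 wkpp libraries b and c, which allows 3 reads in each, and was at 3.91 in library a. In LE 16 wkpp it was at 4.16, 12.2 and 24.5, and the fitted difference of 2.37 ± 1.09 (limma adjusted p = 0.146) rests on these few reads.

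The genes of chromosomes, kinetochores, checkpoint and spindle spread most within groups. *KIF20A*, a kinesin of cytokinesis, was at 3.24, 68.8 and 2.61 in LE 1 wkpp and at 11.4, 49.6 and 126 in LE 16 wkpp. Elsewhere it was at 47.8, 22.6 and 37.4 (-4 wkpp), 17.7, 35.1 and 25.7 (HE 1 wkpp) and 9.78, 7.71 and 16.2 (HE 16 wkpp). *ASPM*, which organises spindle poles, was at 13.0, 119 and 5.22 in LE 1 wkpp and at 21.8, 108 and 280.0 in LE 16 wkpp. The highest library of a group was thus 26.35 and 22.7 times the lowest in LE 1 wkpp for these genes, and 11.0 and 12.8 times in LE 16 wkpp, while in HE 16 wkpp it was 2.11 and 2.85 times. *CENPF*, a protein of the outer kinetochore, was at 214, 109 and 242 at -4 wkpp, at 42.2, 233 and 30.0 in LE 1 wkpp, at 64.9, 172 and 468 in LE 16 wkpp, at 80.3, 141 and 180.1 in HE 1 wkpp and at 58.7, 46.3 and 46.0 in HE 16 wkpp. In each LE group the library that was highest in *KIF20A* was also highest in *ASPM* and *CENPF*.

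This held across the members. LE 1 wkpp library b was highest of its group in 34 of 41 genes, LE 16 wkpp library c in 33 and -4 wkpp library c in 26. Over the 10514 genes with a mean of at least 10 reads, these libraries were highest in 37.7%, 37.2% and 30.7%. At the other end, LE 16 wkpp library a was lowest in 33 of the 41 genes and -4 wkpp library b in 27, against 30.6% and 36.6% of all genes. In HE the order was less even, with 21 of 41 genes highest in library c at 1 wkpp and 17 in library a at 16 wkpp. Genes that are made in the same cells vary together, so these counts describe libraries and are not independent.

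By role, most of the 11 genes of replication and nucleotide supply differed less between libraries of a group than the 29 cyclin, kinase and mitotic genes did. The exceptions were *RRM2*, given above, and *CDC6*, which loads the helicase and was at 2.16, 25.2 and 5.22 in LE 1 wkpp. The union of roles into these sets was made after the values were seen. Summed levels of the 29 genes were 912, 1808 and 916 in LE 1 wkpp and 940, 1546 and 2760 in LE 16 wkpp. They were 1687, 1087 and 1800 at -4 wkpp, 1133, 1362 and 1753 in HE 1 wkpp and 959, 866 and 799 in HE 16 wkpp. For the 11 genes, the sum was between 2820 and 3788 in all 15 libraries, and abundant genes such as *MCM7* and *RRM1* make up much of it. The spread within groups, as the SD of log2(level + 0.5) pooled over the 5 groups, had a median of 0.25 over the 11 genes and of 0.87 over the 28 of the 29 genes with a mean of at least 10 reads, where counting error alone would give a median of 0.11 and 0.39. It was 1.21 for *RRM2* and 0.98 for *CDC6*. Low genes spread more in general. Among genes with a mean count within 1.5 times of its own, the median percentile of a gene's spread was 31.4 for the 11 genes and 71.9 for the 28 genes, and *CENPF*, *ASPM*, *UBE2C*, *KIF20A* and *KIF11* of the latter and *RRM2* of the former were above percentile 90.

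Markers of other cells were set beside the order of the libraries, marker by marker, since sums can rest on 1 abundant gene. The 5 T cell markers were all highest in the LE libraries with high mitotic levels, with sums of 142, 250 and 79.0 in LE 1 wkpp and of 122, 222 and 352 in LE 16 wkpp. In HE, library c was highest in 4 of 5 T cell markers at 1 wkpp, where its mitotic sum was the highest (1753). At 16 wkpp it was highest in 3 of 5, where its mitotic sum was the lowest (799). Other lists were mixed, and those of macrophages (4 of 5) and mast cells (2 of 4) were found in part. In LE 1 wkpp, library b was highest in 3 of 4 B cell, 3 of 4 macrophage, 2 of 2 mast cell, 4 of 6 fibroblast and progenitor and 1 of 5 endothelial markers. In LE 16 wkpp, library c was highest in 1 of 4 B cell, 2 of 4 macrophage, 1 of 2 mast cell, 4 of 6 fibroblast and progenitor and 4 of 5 endothelial markers. There *MS4A1* (48.8, 17.8 and 9.68) was lowest in library c and *COL1A2* (43423, 56183 and 224680) highest, while *DCN* (60968, 53589 and 50676) was lowest. *COL1A1* (132298, 79225 and 110370) was highest in library a, and single library values of genes this abundant are less certain. Of the mast cell markers, *KIT* (1636, 1545 and 1853) was highest in library c and *CPA3* (655, 407 and 554) in library a. At -4 wkpp, library c, highest in most members, was lowest in all 4 macrophage, 4 of 6 fibroblast and progenitor and 3 of 5 T cell markers. Library b, lowest in most members there, was lowest in 2 of 5 keratinocyte and hair follicle markers (sums of 610, 172 and 445). Among erythrocyte markers (4 of 4 found, sums of 289, 38.5 and 293) it was lowest in 2 and highest in 1. It was lowest in 3 of 4 B cell and 2 of 2 mast cell markers, and highest in 4 of 4 macrophage and 4 of 5 endothelial markers. In HE 1 wkpp, erythrocyte sums were 17.7, 43.2 and 338, with *HBA* at 0 in all 3 libraries. None of the markers found in the T cell, B cell, macrophage, mast cell, fibroblast and endothelial lists was at 0 throughout a group. The part of these cells in the mitotic levels was not tested.

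Between LE and HE at 16 wkpp the fitted changes of most members pointed to LE. Of the 40 members tested, 35 were higher in LE and 5 lower, with a median log2 fold change of 1.02 on exons and 0.60 on the whole gene, against 0.04 on exons over all genes. The filter on low counts used reads, and the LE libraries were deeper, so members could pass it through their LE reads. The count is therefore a description. Exonic levels of LE were above those of HE without overlap in 17 of all 41 members and below in 1, while this held for 22.1% and 21.7% of all genes tested. The largest differences were those of *UBE2C* and *CDC20*, partners of the anaphase promoting complex, at 2.58 ± 1.16 and 2.26 ± 1.44, and of *CCNB1* (limma adjusted p = 0.139, 0.278 and 0.146). *UBE2C* was at 9.35, 20.8 and 52.2 in LE and at 3.91, 0 and 5.42 in HE, and *CDC20* at 3.12, 19.0 and 41.3 in LE and at 2.94, 0 and 2.71 in HE. The libraries at 0 allow up to 3 reads. *HMMR*, a spindle protein, had 92.0, 100.4 and 122 in LE against 51.8, 56.6 and 40.6 in HE, a difference of 1.03 ± 0.295 (limma adjusted p = 0.0347 on exons and 0.269 on the whole gene). *BUB1*, a checkpoint kinase, had 40.5, 78.3 and 98.7 in LE against 33.3, 25.7 and 13.5 in HE (1.35 ± 0.59, limma adjusted p = 0.130). Without LE 16 wkpp library c the median of the members was 0.66, and without library a 1.27. Markers of other cells also differed between the diets at this time. All 4 macrophage markers were higher in LE without overlap (sums of 10308 to 13489 and 1909 to 2204), as were 2 of 2 mast cell markers (1952 to 2406 and 247 to 447), 5 of 6 fibroblast and progenitor markers (203477 to 407896 and 45986 to 82571), 2 of 5 adipocyte markers, with the sums given above, 1 of 4 B cell markers and 1 of 5 T cell markers, whose sums overlapped (122 to 352 and 85.1 to 125). Of the endothelial markers, 1 of 5 was higher in LE and 2 were lower, as were 2 of 4 erythrocyte markers. The part of these cells in the members' difference was not tested.

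At 1 wkpp the same contrast had a median of -0.22 on exons and -0.48 on the whole gene, against 0.08 on exons over all genes, with 14 members higher in LE and 24 lower. Groups did not overlap in 3 members that were above and 4 that were below in LE, at a background of 19.2% and 20.2% of genes. The largest differences were those of *CDCA8*, a subunit of the passenger complex, at -2.42 ± 1.42 (limma adjusted p = 0.273), *E2F1*, and *NDC80*, of the outer kinetochore, at -1.498 ± 0.900 (0.282). *CDCA8* was at 0, 27.4 and 1.31 in LE and at 10.4, 10.8 and 14.7 in HE, so LE library b was above all HE libraries and the other LE libraries below them. *NDC80* was at 2.16, 22.9 and 4.57 in LE and at 13.6, 16.2 and 36.8 in HE, where LE library b lay within the HE range and the other LE libraries below it. The median of the members was 0.02 without LE 1 wkpp library c, -0.04 without LE 1 wkpp library a, -0.11 without HE 1 wkpp library c and -0.50 without HE 1 wkpp library a. Markers of other cells differed between the diets here too. Higher in LE without overlap were 4 of 5 adipocyte, 5 of 6 fibroblast and progenitor, 2 of 4 macrophage, 2 of 2 mast cell, 1 of 4 B cell and 1 of 5 T cell markers. Lower were 1 of 5 endothelial and 1 of 5 skeletal muscle markers. The part of these cells was not tested.

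From 1 to 16 wkpp in LE, the median of the members was -0.58 on exons and -0.64 on the whole gene, against -0.01 on exons over all genes, with 32 of 40 members lower at 1 wkpp. *NUSAP1*, which bundles spindle microtubules, was the member that was lower at 1 wkpp without overlap, with 0.540, 9.51 and 3.27 against 13.0, 14.1 and 27.1, and *MCM7* the member that was higher; the background was 4.1% and 8.01% of genes. The *NUSAP1* difference was -2.52 ± 0.84 (limma adjusted p = 0.683). *CDCA8* (-2.43 ± 1.41) and *RRM2* followed in size. The median was larger in size without LE 1 wkpp library b (-1.24) or LE 16 wkpp library a (-1.17), and smaller without LE 1 wkpp library a (-0.37), LE 1 wkpp library c (-0.37) or LE 16 wkpp library c (-0.37). Without library b and LE 16 wkpp library c together, an alternative chosen after the data were seen, it was -0.79.

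In HE, the median for 1 minus 16 wkpp was 0.19 on exons and 0.22 on the whole gene, against -0.01 on exons over all genes, but only 26 members, 14 of them cyclin, kinase and mitotic genes, had enough reads for both analyses. It was 0.51 with no filter beyond 1 read, 0.36 without HE 16 wkpp library a and 0.34 without library c. Of these 26, 5 were higher at 1 wkpp without overlap and 2 lower, at a background of 9.77% and 10.3% of the genes tested. Over all 41 members, low genes included, 12 were higher and 2 lower, for which no background with low genes included was taken. Of the 12, *CCNB1*, *CDCA8* and *CDC20* had at most 4 exonic reads in any library at 16 wkpp. *BUB1B*, a checkpoint kinase of the kinetochore, was at 29.2, 59.5 and 62.5 at 1 wkpp and at 14.7, 10.3 and 16.2 at 16 wkpp (1.497 ± 0.555, limma adjusted p = 0.314). *CENPF* had a difference of 1.10 ± 0.40 (limma adjusted p = 0.309). Whether LE and HE changed differently over this time was tested with an interaction term on 12 libraries. No gene passed an adjusted p-value of 0.01 (limma-voom), with 517 of 10422 genes at an unadjusted p below 0.05 on exons and 547 of 11379 on the whole gene. The median difference over the members was -1.03 on exons and -1.09 on the whole gene, against 0.015 and 0.018 over all genes, and was not tested as a set. Of the members, 2 of 40 were at an unadjusted p below 0.05 (limma-voom) on exons and 0 of 41 on the whole gene. They were *BUB1B*, with a difference of differences (LE minus HE) of -2.79 ± 1.24, and *CDCA8*, with -4.43 ± 1.94 (limma adjusted p = 0.985 for both).

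From -4 to 1 wkpp, the 3 libraries at -4 wkpp served in both comparisons. Against LE the median of the members, -4 minus 1 wkpp, was 0.42 on exons and 0.51 on the whole gene, and against HE 0.29 and 0.05, while over all genes it was -0.03 and 0.06 on exons. Against LE, *CDCA8* (1.99 ± 1.303), *KIF20A* (1.90 ± 0.99) and *ASPM* (1.89 ± 0.87) had the largest fitted changes (limma adjusted p = 0.561, 0.432 and 0.371). In each, LE library b was above all 3 libraries at -4 wkpp and the other LE libraries below them. Levels at -4 wkpp were above those of LE without overlap in 0 of the 40 members tested and below in 3, at a background of 10.5% and 9.24% of genes. Of all 41 members, 1 was above, which was *CENPA*, with 7 to 9 exonic reads a library at -4 wkpp and 2 to 8 in LE, and those below were *MCM7*, *MCM4* and *RRM1*. Against HE, 3 of the 38 members tested were above and 6 below, at a background of 23.2% and 23.6%. The median against LE was 0.81 without LE 1 wkpp library b and 0.64 without -4 wkpp library b, and 0.225 and 0.194 without LE 1 wkpp library a or c. The median against HE was 0.45 without -4 wkpp library b, and 0.14, 0.17 and 0.06 without -4 wkpp library a, -4 wkpp library c or HE 1 wkpp library a.

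**Figure D3:**
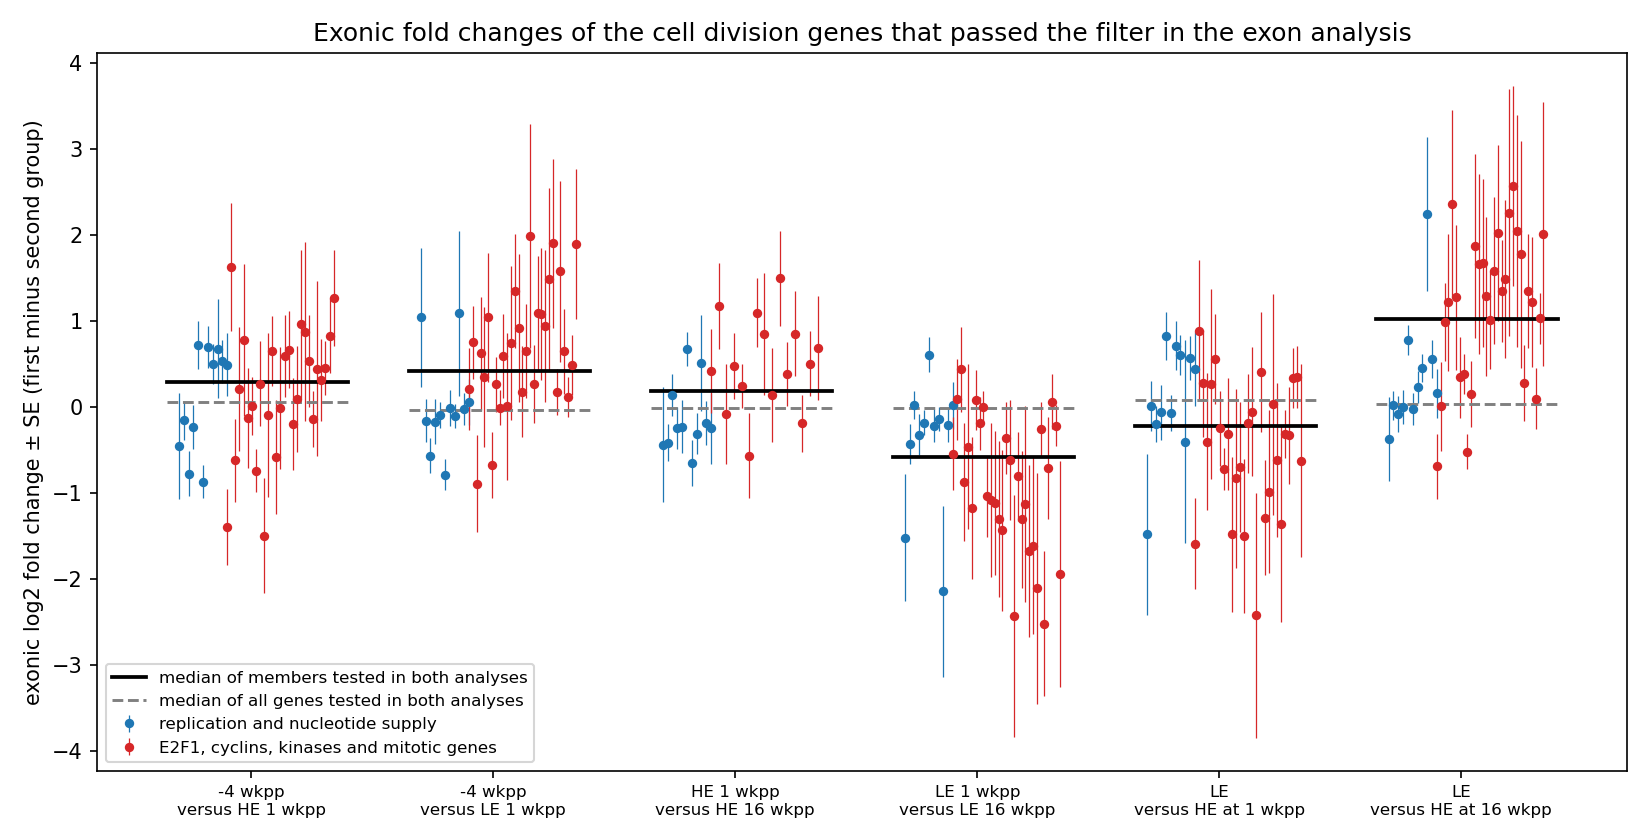
Exonic log2 fold change ± SE (limma-voom, first minus second group) of the members that passed the filter on low counts, for the 6 comparisons, with genes of replication and nucleotide supply in blue and the others in red. Black lines are the median of the members tested in both analyses and dashed grey lines that of all genes tested. The members' median is highest for LE versus HE at 16 wkpp (1.02) and lowest for LE 1 versus LE 16 wkpp (-0.58), and the red points have the longer error bars.

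Reads on the whole gene include introns, which are present in unspliced RNA. The 29 cyclin, kinase and mitotic genes had 3.56 and 3.09 whole gene reads per exonic read in HE 1 wkpp libraries b and c, and 1.45 to 2.39 in the other 13 libraries. The 11 genes of replication and nucleotide supply had 1.38 and 1.38 in these libraries and 1.19 to 1.51 in the others, and all genes 1.87 and 1.84 against 1.66 to 2.46. The ratio over all genes in these libraries was thus within the range of the others. The 49 mitosis genes that are not members were also within the range of the others, with 2.85 and 2.92 against 2.21 to 3.51. In HE 1 wkpp library a they had 2.63, and all genes 2.11. Reads are pooled over genes in these ratios, so low genes weigh little. By role, it was 1.89 to 2.05 in cyclins, kinases and phosphatase (1.29 to 1.88 in the others), 3.81 to 4.17 in chromosome and centromere genes (1.37 to 2.64), 4.44 to 5.96 in checkpoint genes (1.48 to 2.79) and 4.035 to 4.98 in spindle genes (1.52 to 2.64). *BUB1B* had 28, 22 and 17 exonic reads in HE 1 wkpp libraries a, b and c and 51, 148 and 109 reads on the whole gene. *NDC80* had 13, 6 and 10 against 30, 81 and 81, *NUF2*, its partner at the kinetochore, 14, 25 and 13 against 42, 110 and 81, and *KIF11*, the motor that separates spindle poles, 11, 14 and 8 against 29, 97 and 71. *CDC20* (8, 7 and 3 exonic reads, 9, 8 and 4 on the whole gene) and *MCM7* (1097, 414 and 327 against 1206, 438 and 345) showed no such excess. These are also the shallowest libraries of their group, with size factors of 0.370 and 0.272 against 0.959, and spike-ins took 35.0 and 43.1% of their exonic reads. Their keratinocyte and hair follicle markers summed to 73.0 and 268, against 6.26 in library a. The summed mitotic levels (1362 and 1753 against 1133), skeletal muscle sums (1657 and 4000 against 1171) and erythrocyte sums (43.2 and 338 against 17.7) had the same order. In LE, keratinocyte sums of 5.95, 3.36 and 2.61 at 1 wkpp and 9.87, 2.45 and 3.87 at 16 wkpp did not follow the mitotic order. The highest keratinocyte sum, 610 in -4 wkpp library a, came with a mitotic ratio of 1.575. The part of depth and of these cells in the ratio was not tested. HE 16 wkpp libraries b and c, with size factors of 0.389 and 0.369, had ratios of 1.64 and 1.57.

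**Figure D4:**
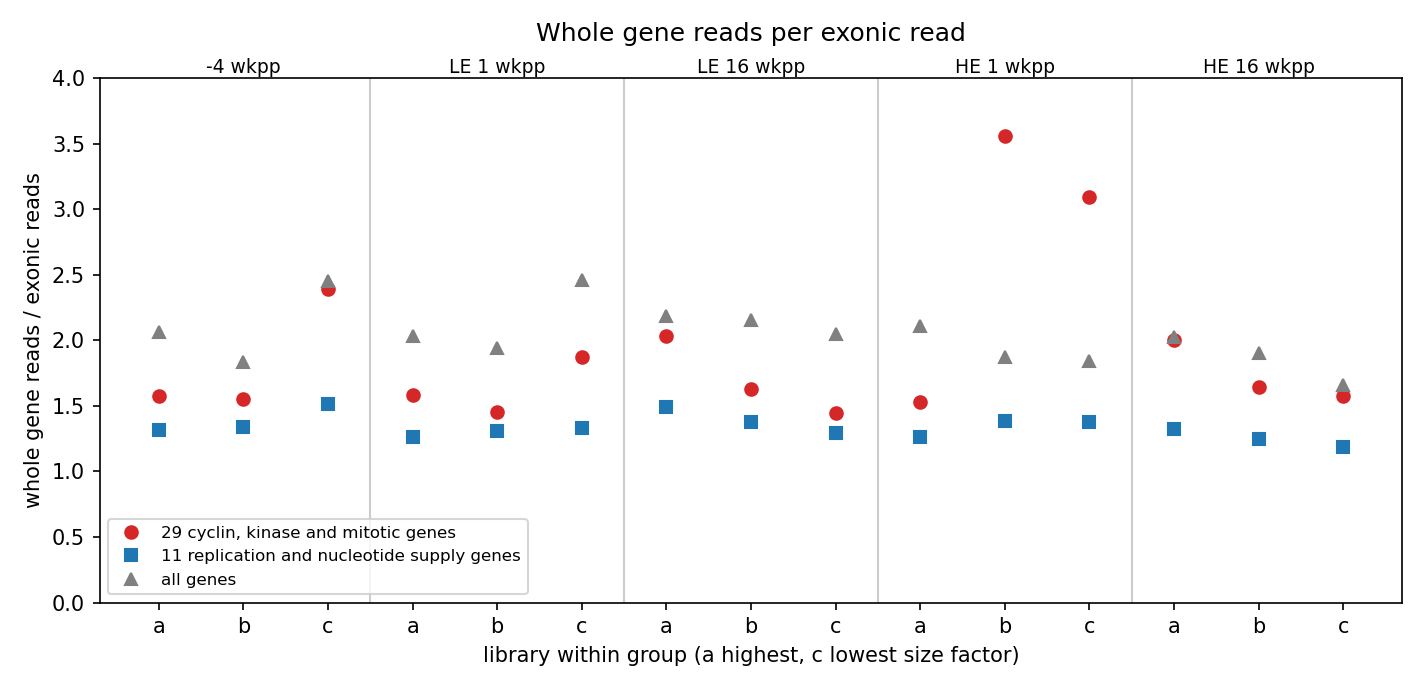
Whole gene reads divided by exonic reads in each of the 15 libraries, for the 29 cyclin, kinase and mitotic genes (red circles), the 11 genes of replication and nucleotide supply (blue squares) and all genes (grey triangles). The red circles of HE 1 wkpp libraries b and c, at 3.56 and 3.09, are above those of all other libraries.

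Other cell cycle genes that are not among the 41 were followed in 3 lists, for replication (31 of 36 listed genes found), mitosis (49 of 54) and entry and arrest (30 of 34). None was called in any comparison. At an unadjusted exonic p below 0.05 for LE versus HE at 16 wkpp, 8 replication genes were higher and 4 lower in LE, 5 mitosis genes higher and 1 lower, and 4 entry and arrest genes higher and 4 lower, at the background of 37.9% given above. The mitosis list repeated the order of libraries, with LE 1 wkpp library b highest in 37 of 49 genes, LE 16 wkpp library c highest in 37 and LE 16 wkpp library a lowest in 35. In the replication list these libraries were highest in 12 and 11 and lowest in 11 of 31 genes. In the entry and arrest list they were highest in 12 and 14 and lowest in 13 of 30 genes. For LE versus HE at 16 wkpp the median log2 fold change was 0.57 over the mitosis genes tested, 0.31 over the replication genes and 0.32 over those of entry and arrest.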

How the data were processed

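RNA of 15 libraries was sequenced by the authors, single-end, from stranded libraries depleted of ribosomal RNA. Per the labels and methods, reads were trimmed with Cutadapt 1.3, aligned with TopHat2 to bosTau8, counted by the authors with htseq-count on exons and on whole genes, and compared with DESeq2. Each of the 6 deposited tables gives the authors' mean of normalized counts over 6 libraries and their fold changes, standard errors, test scores and p-values. The latter were not used. No column of another sample was present (0 columns).

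The means carry 15 significant digits and are weighted sums of whole reads. Size factors were read from genes with a single read, and the reads of all libraries were solved from the 6 means of a gene as the whole numbers that give them (99.97% of entries with exonic reads and 99.94% with whole gene reads, largest relative gap 6.4e-15 below a mean of 10000). Unsolved were *RN7SL1*, 3 collagen genes (whole gene) and spike-ins, whose share is therefore a lower bound. Above a mean of 10000 the gap is not given here, so single library values of such genes are less certain. In HE 1 wkpp, for example, *COL1A1* came to 19156, 578 and 70305 and *COL1A2* to 18929, 18396 and 8495. Size factors recomputed from the reads differed from those in the means by at most 0.072%. No 2 libraries agreed within sampling noise (chi-square per degree of freedom at least 17.8).

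Reads were scaled by median-of-ratios size factors and tested with limma 3.58.1 (voom) in R 4.3.3, on the 6 libraries of a comparison, for genes with a mean of at least 10 reads. Spike-ins were left out. Effects are differences on the log2 scale, with voom's offset of 0.5 reads. Replicates may be cows sampled repeatedly, which p-values ignore. An exact permutation test of 3 libraries against 3 cannot give p below 0.1 and was not used. Recovery and fits were tested on simulated data. The alternatives were exon or whole gene calls alone, a threshold of 0.05, total count scaling, no filter, limma-trend, a fit on all 15 libraries and leaving out each library.

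The members and lists were chosen with earlier results of these data known. Named genes were *CDK1* and *PCNA*, those called, the 8 highest and 4 lowest in mean exonic count, the 3 largest changes per comparison, and called genes of the other lists (at most 6 per comparison). Sequences and gene positions were not used here. Computations also used Python 3.11.15, numpy 2.4.6 and pandas 2.3.3.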

Additional observations from a re-analysis of the deposited data

Results flagged for a closer look

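Spike-in RNAs, which are not part of any comparison, took at least 25.8% of the exonic reads in each HE library, above the 1.95 to 3.83% of the libraries at -4 wkpp. Groups of 3 libraries are too small for a test of single outlying samples, and no member passed the test of a difference between LE and HE in the change from 1 to 16 wkpp.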

How the results depend on the processing

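Counts of called members were taken for each comparison and direction, and 154 of the 158 alternative counts were 0, as in the report. The exceptions were *MCM7*, lower at -4 than at HE 1 wkpp, which was called on exons alone (1 gene), with the threshold at 0.05 (1 gene) and in the fit on all 15 libraries (1 gene), and *MCM6*, higher in LE than in HE at 16 wkpp, with the threshold at 0.05 (1 gene). Why *MCM7* passed in the larger fit was not tested. The medians of the members kept their sign in all but 1 of 61 settings, and 2 of the 61 moved by more than 0.457 (log2), the SD between libraries of a group. Leaving out single libraries, the median for LE 1 versus LE 16 wkpp ranged from -1.237 to -0.366. For LE versus HE at 1 wkpp it ranged from -0.496 to 0.020, with the change of sign without LE 1 wkpp library c. Scaling by total counts shifted all exonic fold changes by -0.24, -0.19, 0.06, 0.12, -0.06 and -0.10 (log2) in the order of comparisons in the report, and the medians of the members for -4 versus HE 1 and LE 1 wkpp were then 0.053 and 0.217. With limma-trend these 2 medians were 0.145 and 0.451. With 1 library left out, 1 group has 2 libraries, and the spread is shared between groups in the fit. Depth limits the HE groups, where 1 read is worth a level of up to 3.68 and where 26 of 41 members could be tested in both analyses between HE 1 and HE 16 wkpp. No paired analysis was possible because the recovered libraries carry no replicate number and the labels do not tie samples to cows.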
